A study of Rattus norvegicus with 4 samples.

Results

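The genes described here are 43 genes of the lysosome and of autophagy, chosen by name with earlier results of these data known. They comprise 6 membrane proteins, 17 hydrolases, 2 soluble proteins without enzyme activity and 5 genes of the proton pump. The others are the 3 transcription factors of the MiT/TFE family and 10 autophagy genes. The counts table holds 17949 genes and has a row for 42 of the 43; Naglu has none and was not analysed here. All 42 passed the filter on low counts, with at least 273 counts in every sample. The samples were primary rat Schwann cells (SCs), the glia of peripheral nerves, taken from sciatic nerve and grown in 10% serum with 4 μM forskolin and 5 ng/ml heregulin-β1, in both groups. One group (Lenti-AS, n = 2) was infected with a lentivirus that overexpresses the Egr2-AS, an antisense RNA to the promoter of the myelin regulator Egr2. The other (Lenti-GFP, n = 2) received the backbone virus carrying GFP. Both infections lasted 48 h, at 2 virus units per cell. The vector of the Egr2-AS carries a red fluorescent reporter instead of the green one, which is a further difference between the groups. The replicates are labelled biological, and no label says whether they were separate cultures or animals. The p-values weigh the difference between groups against the spread between these samples, and may not extend to other cultures or animals.

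The lysosome is the acidic compartment in which cells break down proteins, glycans and lipids. Its hydrolases work at the low pH that a proton pump, the V-ATPase, maintains, and highly glycosylated membrane proteins line it. Autophagy delivers cytoplasm and organelles to it in double-membrane vesicles. The factors TFEB, TFE3 and MITF bind E-box-like sites, the CLEAR elements, near the start of many lysosome and autophagy genes, and mTORC1, the nutrient-sensing kinase complex that docks on the lysosome, holds TFEB and TFE3 in the cytoplasm by phosphorylation. In nerves, SCs use lysosomes and autophagy to break down their own myelin after injury.

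The counts summed to between 74024323 and 96185890 per sample. The Lenti-AS samples differed from each other more than the Lenti-GFP samples did, at a chi-square of 99.1 per gene against 30.8, where repeated sampling of one library gives 1. Of the 10 SC markers checked, 9 had at least 4604 counts in every sample and Gap43 had 2 to 25, and the 10 summed to 7203 and 7213 CPM (counts scaled to a common library size) in Lenti-GFP and to 9097 and 7911 CPM in Lenti-AS. Sox10 had 14269 counts in Lenti-AS 1 and 4604 in Lenti-AS 2, with 7195 and 6882 in Lenti-GFP. Macrophages are rich in lysosomes. Their 12 markers summed to 2.31 and 2.66 CPM in Lenti-GFP and to 2.49 and 2.83 CPM in Lenti-AS. Csf1r, at 170 to 182 counts per sample, made up most of that, and Cd14 had 16 to 38 counts. The rest had 0 to 12 counts, with Aif1, C1qa, C1qb, C1qc and Tyrobp at 0 to 3 in every sample. The 10 fibroblast markers summed to 4521 and 4049 CPM in Lenti-GFP and to 4897 and 3093 CPM in Lenti-AS. Nearly all of it was collagen and Pdgfrb. Col1a1 had 841 and 721 CPM in Lenti-GFP, 2131 CPM in Lenti-AS 1 and 290.1 CPM in Lenti-AS 2. Pdgfra had 288 to 386 counts per sample, while Dcn, Lum, Thy1, Tcf21 and Dpt had 0 to 3 counts. The 8 endothelial markers summed to 21.3 and 21.2 CPM in Lenti-GFP and to 16.4 and 16.0 CPM in Lenti-AS, and Tek carried most of that. The red blood cell markers, chiefly globins, stood at 5.29 and 4.69 CPM in Lenti-GFP, 7.30 CPM in Lenti-AS 1 and 2506 CPM in Lenti-AS 2. The part of these differences in the results that follow was not tested beyond leaving out each sample in turn.

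Most of the lysosome and autophagy genes had fitted levels slightly higher in Lenti-AS than in Lenti-GFP. Of the 42 genes, 3 rose, the cholesterol exporter Npc1 and the hydrolases Gaa and Tpp1, at 1.55-fold, 1.42-fold and 1.54-fold, and 0 fell. Calls were made with the quasi-likelihood test of edgeR, at a Benjamini-Hochberg adjusted p below 0.05 over the 12446 genes tested together with a fitted change of 1.3-fold or more. The 3 genes are 7.14% of the 42, where 1.98% of all genes tested were called (1.31% higher and 0.667% lower). Among the 9133 genes with a mean count at least that of the lowest member, 1.73% were called higher. On the adjusted p alone, whatever the fold, 5 of the 42 passed and were higher, and 1.40% of all genes passed as higher and 0.779% as lower. At an unadjusted p under 0.05, 17 of the 42 were higher and 3 lower, together 47.6% of them, where 12.5% and 9.37% of all genes tested were (21.8% together). DESeq2, limma-voom and the other tests and scalings tried called 0 members lower as well. The fitted log2 fold change was above 0 for 32 of the 42 (76.2%), against 51.3% of all genes tested. The median over the 42 was 0.15 on the log2 scale, beside 0.0071 over all genes tested, and 35 of the 42 stayed within 1.3-fold. The members were well-counted genes, and the 9133 genes with a mean count at least that of the lowest member (333.5) had a median of -0.0085, with 48.3% above 0 and, at an unadjusted p under 0.05, 14.9% higher and 11.7% lower (26.5% together). The members were chosen with earlier results of these data known, so these shares and medians describe the list and test nothing. The values are levels in RNA from whole cultures, in which more cells of a kind and more RNA per cell cannot be told apart.

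**Figure D1:**
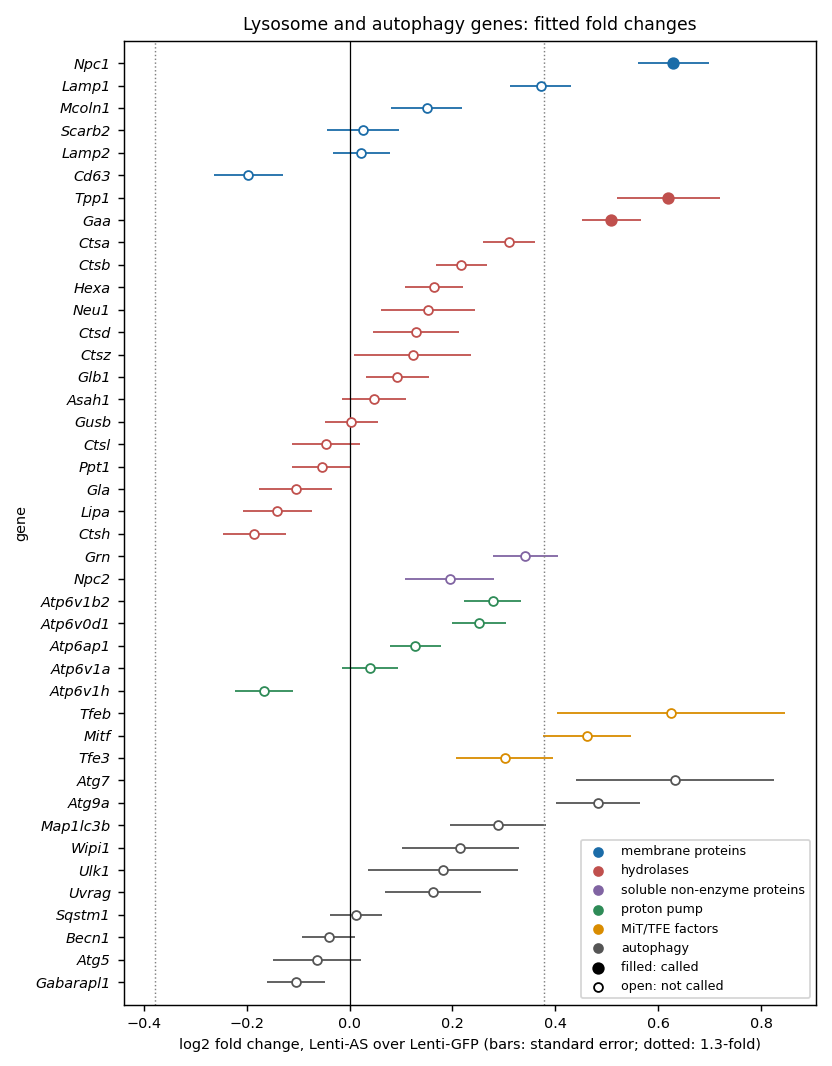
Fitted log2 fold change of each of the 42 genes in Lenti-AS over Lenti-GFP (x axis) by role, with the standard error as a bar; filled points are called genes and the dotted lines mark 1.3-fold. Points to the right of 0 outnumber those to the left by 32 to 10, and the filled points are Npc1, Tpp1 and Gaa.

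Both Lenti-AS values lay above both Lenti-GFP values for 23 of the 42 genes (54.8%) and below both for 8 (19.0%), and the groups overlapped for 11. Among all genes tested the groups were apart for 54.9%, with 27.7% above and 27.2% below. Among genes with a mean count at least that of the lowest member, 28.4% lay above and 31.6% below. Together the 42 genes took 1.32% and 1.33% of all counts in Lenti-GFP 1 and 2 and 1.41% in each Lenti-AS sample. Cd63 alone made up between 19.7% and 25.0% of those counts, and without it the share was 0.987% and 0.998% in Lenti-GFP and 1.13% and 1.10% in Lenti-AS.

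Among the 6 membrane proteins, Npc1 rose. Npc1 carries cholesterol out of the lysosome and is the gene mutated in most Niemann-Pick type C disease. Its level was 48.7 and 50.4 CPM in Lenti-GFP 1 and 2 and 78.1 and 75.2 CPM in Lenti-AS 1 and 2. The 24.8 CPM that parted the groups was far more than the 1.68 and 2.88 CPM between replicates. The group values were 49.5 ± 1.19 CPM and 76.6 ± 2.04 CPM (SD, n = 2 each), a log2 fold change of 0.63 ± 0.07 (SE), and the quasi-likelihood test of edgeR gave an adjusted p of 0.0237, the lowest of the 42 genes.

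Lamp1, one of the main glycoproteins of the lysosomal membrane, had 604 and 572 CPM in Lenti-GFP and 782 and 739 CPM in Lenti-AS. The groups were 135 CPM apart at their nearest samples. Its adjusted p was 0.0452 in the same edgeR fit, but its fold change of 1.29 (log2 fold change 0.37, standard error 0.06) was under the limit of 1.3, so it was not called. The 190 bases before the Lamp1 start are shown because they hold more E-boxes than the promoter window of any other member. In RefSeq's GRCr8 assembly (chr16:83075064-83075253, minus strand) they contain 5 copies of CACGTG, 2 of them within the longer palindrome TCACGTGA that is the core of the CLEAR element. Capitals mark these copies.
Lamp1: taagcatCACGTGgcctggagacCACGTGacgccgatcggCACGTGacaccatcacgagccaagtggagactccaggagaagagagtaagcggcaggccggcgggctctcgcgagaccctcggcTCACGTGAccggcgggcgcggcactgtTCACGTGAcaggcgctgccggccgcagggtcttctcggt

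The other 4 membrane proteins showed smaller differences, in either direction. Cd63, a tetraspanin of late endosomes and the most counted of the 42, had 3315 and 3335 CPM in Lenti-GFP and 2753 and 3049 CPM in Lenti-AS. Lenti-AS lay below in each sample, by 266 CPM or more, with 296 CPM between its own samples, and Cd63 was not called (log2 fold change -0.20 ± 0.07 SE, edgeR adjusted p = 0.174). Without Lenti-AS 1 the log2 fold change of Cd63 was -0.13, and without Lenti-AS 2 it was -0.27. Mcoln1, the calcium channel TRPML1, had 63.9 and 63.2 CPM in Lenti-GFP and 68.1 and 72.9 CPM in Lenti-AS (log2 fold change 0.15, 95% interval -0.02 to 0.32). Lamp2, the partner of Lamp1, and Scarb2, the receptor that carries glucocerebrosidase to the lysosome, had overlapping groups and log2 fold changes of 0.02 and 0.03, which turned negative in some of the fits without 1 sample. These 2 genes were chosen for mention after their values were seen. The 95% interval for Lamp2 was -0.11 to 0.16.

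Of the 16 hydrolases measured, 2 rose. Gaa, the acid glucosidase that degrades glycogen and is deficient in Pompe disease, had 161 and 164 CPM in Lenti-GFP and 223 and 239 CPM in Lenti-AS. The gap of 59.6 CPM between the groups compares with 2.57 and 15.9 CPM between replicates. The means were 163 ± 1.82 CPM and 231 ± 11.2 CPM (SD, n = 2 each; log2 fold change 0.51 ± 0.06 SE, edgeR adjusted p = 0.0252). Tpp1, the tripeptidyl peptidase that is lost in a form of neuronal ceroid lipofuscinosis, had 40.9 and 40.7 CPM in Lenti-GFP and 68.4 and 57.0 CPM in Lenti-AS. Its Lenti-GFP samples were nearly equal while its Lenti-AS samples were 11.4 CPM apart, less than the 16.1 CPM between the groups. The means were 40.8 ± 0.131 CPM and 62.7 ± 8.07 CPM (SD, n = 2 each; log2 fold change 0.62 ± 0.10 SE, edgeR adjusted p = 0.0463).

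The other hydrolases spread on both sides of 0. Ctsa, the carboxypeptidase that protects the sialidase Neu1 and β-galactosidase, had 536 and 544 CPM in Lenti-GFP and 665 and 673 CPM in Lenti-AS. It had an adjusted p of 0.0460 by the same edgeR test and, at 1.24-fold, was not called. Ctsb, a cysteine protease, had 616 and 617 CPM in Lenti-GFP and 721 and 713 CPM in Lenti-AS, a log2 fold change of 0.22 (standard error 0.05, adjusted p = 0.0893). These values show tight groups with small differences between them. Hexa, the α subunit of β-hexosaminidase, had 479 and 471 CPM in Lenti-GFP and 515 and 549 CPM in Lenti-AS (log2 fold change 0.16, edgeR adjusted p = 0.177). Ctsh, an aminopeptidase, had the most negative fitted value of the hydrolases, with 253 and 266 CPM in Lenti-GFP and 236 and 220 CPM in Lenti-AS (log2 fold change -0.19 ± 0.06 SE, edgeR adjusted p = 0.167). Ctsd, the main aspartic protease of the lysosome, had 1360.1 and 1405 CPM in Lenti-GFP and 1628 and 1395 CPM in Lenti-AS. Lenti-AS 1 was above both Lenti-GFP samples and Lenti-AS 2 between them, and its log2 fold change was 0.13 (95% interval -0.07 to 0.33), with 0.01 without Lenti-AS 1 and 0.24 without Lenti-AS 2. The remaining 9 hydrolases, Ctsl, Ctsz, Gla, Glb1, Gusb, Neu1, Lipa, Asah1 and Ppt1, had log2 fold changes between -0.14 and 0.15 and adjusted p-values of at least 0.278 in the same edgeR fit. Summed over the 16 genes, the hydrolases had 4891 and 4983 CPM in Lenti-GFP and 5574 and 5290.1 CPM in Lenti-AS.

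Both soluble proteins without enzyme activity had higher values in Lenti-AS, and neither was called by edgeR or DESeq2. Grn encodes progranulin, a secreted growth factor that is also cleaved in the lysosome. It had 453 and 465 CPM in Lenti-GFP and 554 and 609 CPM in Lenti-AS, with 89.3 CPM between the groups and 55.0 CPM between the Lenti-AS samples (log2 fold change 0.34 ± 0.06 SE, edgeR adjusted p = 0.0601). Npc2, the soluble protein that hands cholesterol to Npc1, had 122 and 133 CPM in Lenti-GFP and 157 and 135 CPM in Lenti-AS. Npc2 was added after its values were seen, for its tie to Npc1. Lenti-AS 2 lay just above Lenti-GFP 2, and the log2 fold change of Npc2 was 0.19 (95% interval -0.02 to 0.41), beside the interval of 0.46 to 0.80 for Npc1.

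The genes of the proton pump showed small differences in both directions, and 0 of the 5 were called by edgeR. Unadjusted p-values under 0.05 were found for 3 higher genes and 1 lower gene, beside 12.5% and 9.37% of all genes tested. Atp6v1b2, the subunit B2 of the catalytic V1 domain, had 188 and 195 CPM in Lenti-GFP and 227 and 238 CPM in Lenti-AS (log2 fold change 0.28 ± 0.06 SE, edgeR adjusted p = 0.0715). Atp6v0d1, the subunit that joins the stalk to the membrane ring, had 176 and 180.2 CPM in Lenti-GFP and 216 and 208 CPM in Lenti-AS (log2 fold change 0.25, edgeR adjusted p = 0.0763). Atp6ap1, an accessory protein of pump assembly, had 373 and 374 CPM in Lenti-GFP and 406 and 410.5 CPM in Lenti-AS (log2 fold change 0.13, edgeR adjusted p = 0.212). In all 3 genes both Lenti-AS values lay above both Lenti-GFP values, as in 27.7% of all genes tested. Atp6v1h, the regulatory subunit H of the same V1 domain, lay the other way, with 103 and 104 CPM in Lenti-GFP and 92.2 CPM in each Lenti-AS sample (log2 fold change -0.17 ± 0.06 SE, edgeR adjusted p = 0.170). For Atp6v1a, the catalytic subunit A, the groups overlapped. The 5 genes summed to 1001 and 1022 CPM in Lenti-GFP and to 1113 and 1116 CPM in Lenti-AS.

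The 3 MiT/TFE factors had higher values in both Lenti-AS samples than in either Lenti-GFP sample, at low to moderate counts. By edgeR all 3 had an unadjusted p under 0.05 and 0 of the 3 were called. Of all genes tested, 27.7% had both Lenti-AS values above both Lenti-GFP values, and 12.5% were higher at that p. DESeq2 and the likelihood ratio test called Mitf. Mitf, best known for the melanocyte lineage, had 12.8 and 13.8 CPM in Lenti-GFP and 17.9 and 18.8 CPM in Lenti-AS. Its replicates were 1.01 and 0.980 CPM apart and the groups 4.04 CPM (log2 fold change 0.46 ± 0.09 SE, edgeR adjusted p = 0.0594). Tfeb, the factor most closely tied to lysosome formation, had 3.15 and 2.88 CPM in Lenti-GFP and 5.53 and 3.75 CPM in Lenti-AS, from 294, 273, 485 and 282 counts. The Lenti-AS samples differed by 1.78 CPM, more than the 0.602 CPM between the groups (log2 fold change 0.62 ± 0.22 SE, edgeR adjusted p = 0.187). Without Lenti-AS 1 the log2 fold change of Tfeb was 0.32, and without Lenti-AS 2 it was 0.88. Tfe3 had 23.2 and 23.0 CPM in Lenti-GFP and 30.8 and 26.0 CPM in Lenti-AS (log2 fold change 0.30 ± 0.09 SE, edgeR adjusted p = 0.150). Its log2 fold change was 0.17 without Lenti-AS 1 and 0.42 without Lenti-AS 2. The median of the 3 was 0.46. Only mRNA was measured, and the location and phosphorylation of these factors were not.

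The autophagy genes had log2 fold changes from -0.10 to 0.63. In the main edgeR fit 0 of the 10 were called, with 3 higher and 0 lower at an unadjusted p under 0.05. At that p 12.5% of all genes tested were higher and 9.37% lower. DESeq2 and the likelihood ratio test called Atg9a, as did edgeR with RLE factors, library totals, upper-quartile factors or no low-count filter. Atg9a, the membrane-spanning protein whose vesicles seed the autophagosome, came nearest. It had 19.4 and 17.6 CPM in Lenti-GFP and 26.7 and 25.0 CPM in Lenti-AS, means of 18.5 ± 1.28 and 25.9 ± 1.21 CPM (SD, n = 2 each; log2 fold change 0.48 ± 0.08 SE, edgeR adjusted p = 0.0501). Atg9a lies just outside the limit on p and Tpp1 just inside it. Atg7, the E1-like enzyme that activates the LC3 and Atg12 conjugation systems, had 3.26 and 3.30 CPM in Lenti-GFP and 5.86 and 4.30 CPM in Lenti-AS, from 304 to 514 counts. Its Lenti-AS samples were 1.57 CPM apart against 0.995 CPM between the groups (log2 fold change 0.63 ± 0.19 SE, edgeR adjusted p = 0.144). Without Lenti-AS 1 its log2 fold change was 0.39, and without Lenti-AS 2 it was 0.84.

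Of the proteins that coat the autophagosome, Map1lc3b, which encodes LC3B, had 64.3 and 63.5 CPM in Lenti-GFP and 84.5 and 71.6 CPM in Lenti-AS (log2 fold change 0.29 ± 0.09 SE, edgeR adjusted p = 0.161). The log2 fold change of Map1lc3b was 0.16 without Lenti-AS 1 and 0.40 without Lenti-AS 2. Gabarapl1, of the related GABARAP branch, had 181 and 190.2 CPM in Lenti-GFP and 175 and 170 CPM in Lenti-AS (log2 fold change -0.10 ± 0.06 SE, edgeR adjusted p = 0.329). The groups of each gene did not overlap, as for 54.9% of all genes tested, and they lay in opposite directions. Sqstm1, which encodes the cargo receptor p62, had 1388 and 1413 CPM in Lenti-GFP and 1405 and 1419 CPM in Lenti-AS. Its samples interleaved, with a log2 fold change of 0.01 and a 95% interval of -0.11 to 0.14. Ulk1, the kinase that starts autophagy, Becn1 and Uvrag of the lipid kinase complex, the conjugation gene Atg5 and the phosphoinositide reader Wipi1 had log2 fold changes between -0.06 and 0.22 and adjusted p-values of at least 0.324 in the same fit. The 10 genes summed to 1988 and 2027 CPM in Lenti-GFP and to 2049 and 2019 CPM in Lenti-AS, with most of the sum from Sqstm1.

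**Figure D2:**
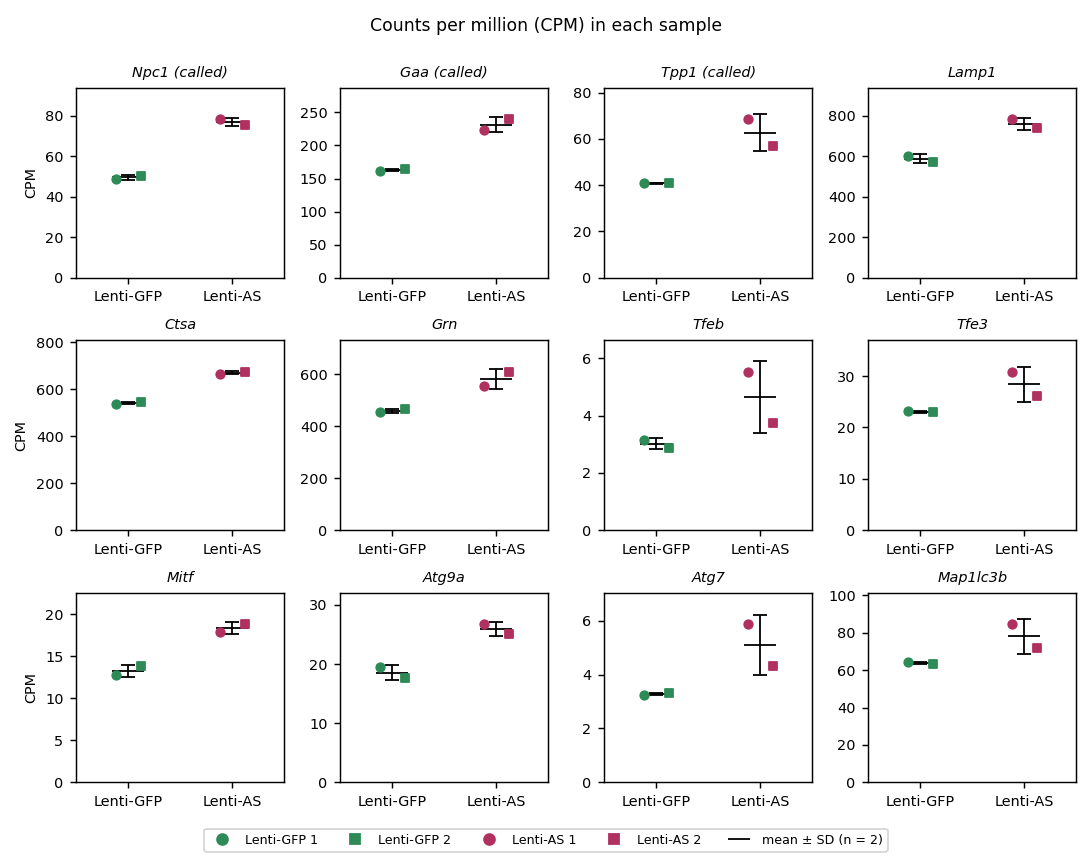
CPM in each sample (y axis, from 0) of 12 genes in Lenti-GFP (green) and Lenti-AS (red), with circles for replicate 1, squares for replicate 2 and bars for the mean ± SD (n = 2). All 12 are among the 23 of 42 genes with both Lenti-AS values above both Lenti-GFP values, so their groups are apart. The 8 genes that lay below and the 11 that overlapped are not shown. Among all genes tested 27.7% lay above. Replicates are close for Npc1, Gaa, Ctsa and Mitf, with a wide gap between the Lenti-AS replicates for Tfeb and Atg7.

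By role, the median log2 fold change was 0.09 for the membrane proteins, 0.11 for the hydrolases, 0.27 for the 2 soluble proteins, 0.13 for the proton pump, 0.46 for the MiT/TFE factors and 0.17 for the autophagy genes. These medians were not tested against one another. Without Lenti-AS 1 the median was 0.02 for the hydrolases and 0.04 for the autophagy genes, and without Lenti-AS 2 it was 0.08 and 0.20. Which Lenti-AS sample was the higher varied from gene to gene: of the 32 genes above 0, Lenti-AS 1 was above Lenti-AS 2 in 19.

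**Figure D3:**
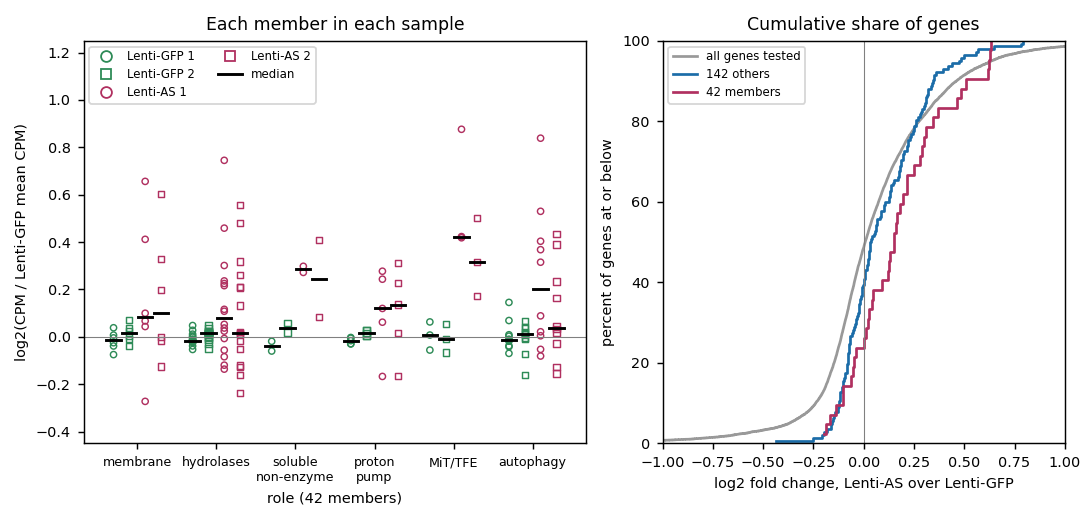
Left, log2 of CPM over the Lenti-GFP mean (y axis) for each of the 42 genes in each sample, by role, with the median of each sample as a black bar. Right, the cumulative share of genes (y axis, percent) by log2 fold change for the 42 members (red), 142 other lysosome and autophagy genes (blue) and all 12446 genes tested (grey), in which the red curve lies to the right of the others over most of its middle part and ends at 0.63, and 32 of 42 members lie above 0.

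To see which members carry a CLEAR-like sequence at their start, the RefSeq promoter windows of the GRCr8 assembly (250 bases before to 50 after the start, 1 window per gene) were searched for CACGTG, for TCACGTGA and for TCACGTGA with a G before and a C after it, the full consensus. Each is its own reverse complement, so both strands were read at once, and each longer motif contains the shorter. A window was found for 35 of the 43 genes. CACGTG was in 8 of the 35 (22.9%), against 9.08% of the windows of 9487 genes tested and 6.65% of 27457 windows in all. TCACGTGA was in 4 of the 35 (11.4%), against 1.55% and 0.867%. The full consensus was in 0 of the 35, against 0.495% and 0.277%. The 4 genes with TCACGTGA were Lamp1, shown above, Mcoln1, Ctsd and Atp6v0d1, and those with the shorter letters alone were Gaa, Glb1, Cd63 and Atg5. The matches nearest the start in Mcoln1, Ctsd, Atp6v0d1 and Gaa are printed 5′ to 3′ on the strand of the gene, with the match in capitals, to set the sites of a called gene and of 3 genes not called side by side. They are centred 7 bases after the start of Mcoln1 (chr12:6358252-6358277, plus strand), 7 bases before that of Ctsd (chr1:206968816-206968841, minus strand), 49 before that of Atp6v0d1 (chr19:50357285-50357310, minus strand) and 64 before that of Gaa (chr10:105028278-105028303, plus strand).
Mcoln1: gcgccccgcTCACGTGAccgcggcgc
Ctsd: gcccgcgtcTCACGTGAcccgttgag
Atp6v0d1: ccattgtggTCACGTGAgatgcagtg
Gaa: gcccacaaacCACGTGacccacgctg

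The 8 genes with CACGTG had log2 fold changes from -0.20 for Cd63 to 0.51 for Gaa, with a median of 0.14 and 6 above 0. The 26 measured genes whose window lacks it had a median of 0.16 and 21 above 0. The 4 genes with TCACGTGA had log2 fold changes from 0.13 for Ctsd to 0.37 for Lamp1, with a median of 0.20 and all 4 above 0. These groups of genes were not tested against one another. Of the 3 called genes, Gaa has CACGTG in its window and Npc1 and Tpp1 do not. A match of letters is a description and does not show that a factor binds there.

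Other genes of the same compartment, from lists written with earlier results of these data known, were set beside the members. Of 154 genes listed, 142 were tested, and edgeR's quasi-likelihood test called 0 of them in either direction. At an unadjusted p under 0.05, 38 were higher and 7 lower, together 31.7% of them. Of all genes tested, 12.5% were higher and 9.37% lower (21.8% together), and the counts of each list below stand beside these same shares. DESeq2 called 6 higher and 0 lower, where it called 3.92% of all genes tested higher and 1.12% lower. The likelihood ratio test called Ap3d1 and Gsk3b higher, where it called 374 of the 12446 genes tested higher and 147 lower. The median log2 fold change of the 142 was 0.03.

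Of 29 other hydrolases and their activators, 11 were higher and 0 lower at an unadjusted p under 0.05, and the median log2 fold change was 0.13. Of 22 other membrane proteins 8 were higher and 0 lower, with a median of 0.19, and the smallest p belonged to the cystine transporter Ctns (log2 fold change 0.31, edgeR adjusted p = 0.0835). Of 13 other pump subunits 5 were higher and 1 lower, with a median of 0.03, and the smallest p was that of Atp6v1d, a subunit of the central stalk (log2 fold change 0.30, edgeR adjusted p = 0.103). Neither gene had the largest fitted log2 fold change of its list, which was 0.78 among the membrane proteins and 0.79 among the pump subunits.

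Of 17 genes that sort enzymes to the lysosome, 5 were higher and 0 lower at an unadjusted p under 0.05, and their median log2 fold change was 0.06. The adaptor subunit Ap3d1 had the smallest p, at 89.6 and 98.7 CPM in Lenti-GFP and 144 and 118 CPM in Lenti-AS (log2 fold change 0.47, edgeR adjusted p = 0.0874). Of 17 genes that dock mTORC1 or control TFEB at the lysosome 5 were higher and 2 lower, with a median of 0.05, and Fnip2, a partner of folliculin, had the smallest p (log2 fold change 0.32, edgeR adjusted p = 0.0763), while the largest log2 fold change of that list was 0.57. Of 30 other autophagy genes 3 were higher and 3 lower, and the median was -0.04, with 20 of the 30 below 0. Ambra1, which promotes the activity of the Becn1 complex, had the smallest p there (log2 fold change 0.34, edgeR adjusted p = 0.104). Of 14 genes of fusion with the lysosome 1 was higher and 1 lower, with a median of 0.02, and the smallest p belonged to the GTPase Rab2a (log2 fold change -0.18, edgeR adjusted p = 0.165).

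The fold changes of the 3 called genes kept their direction when single samples were left out, while the number of calls varied. The groups of these 3 genes did not overlap, which nearly fixes the direction in advance. For Npc1 the log2 fold change stayed between 0.60 and 0.66, for Gaa between 0.46 and 0.56 and for Tpp1 between 0.48 and 0.75. Without Lenti-AS 2, the sample with the globin counts, 10 members were called higher, and without Lenti-AS 1 there were 6, each including Npc1, Gaa and Tpp1. The calls over the whole table grew as well, from 163 genes higher to 1266 without Lenti-AS 2 and 570 without Lenti-AS 1, of 12446 tested. When Lenti-GFP 1 or Lenti-GFP 2 was left out, 0 members were called by edgeR (10 and 11 were higher at an unadjusted p under 0.05), and in each of those fits 1 gene of the whole table was. A lone sample in a group was assumed to vary like the other group. With 2 samples per group an exact permutation test of a single gene cannot give a two-sided p under 0.333.

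**Figure D4:**
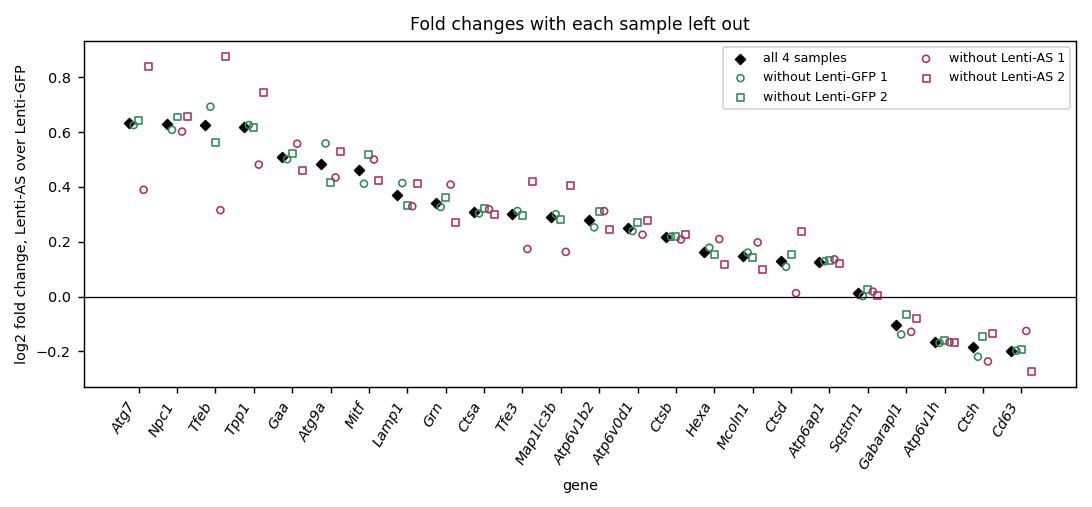
Log2 fold change in Lenti-AS over Lenti-GFP (y axis) of the 24 genes given in detail, with all 4 samples (black diamonds) and with each sample left out in turn (open symbols). All 24 keep their sign in every fit. In all but Ctsd and Sqstm1 the groups do not overlap, which nearly fixes the sign in advance. The symbols spread most for Tfeb and Atg7.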

How the data were processed

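RNA-seq of 4 samples was analysed, from 2 Lenti-GFP and 2 Lenti-AS infections. The authors deposited whole-number read counts per gene without normalization, made with featureCounts over RefSeq exons of rn6 from 50 bp paired-end reads. The paper's methods name hisat2 as the aligner and the submitters' processing notes name GSNAP. Tool versions, the strand setting and the handling of multiply matching reads are not given in the sources used here. A row repeating the header (1) was dropped. Samples were mapped by label and column name.

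Genes reaching 10 counts in 2 or more samples (12446) were fitted with edgeR 4.0.16 in R 4.3.3 by glmQLFit and glmQLFTest with TMM factors and no replicate term. CPM use TMM-scaled library sizes, standard errors come from the F statistic, and 95% intervals from the t distribution of the fit. Alternatives were DESeq2 1.42.0, limma-voom (limma 3.58.1), the likelihood ratio test, other scalings and filters, a replicate block and leaving out each sample. No rn6 annotation was used, so gene length and GC content were not checked. The members, lists and roles were chosen with earlier results of these data known.

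Members described in detail were those called, those with an unadjusted p under 0.05, the MiT/TFE factors, Lamp1, Ctsd, Sqstm1, Map1lc3b, Mcoln1 and the largest rise and fall in each role. In the other lists they were called genes or, failing these, the gene with the smallest p. For 1 of these lists that gene is not reported here.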

Additional observations from a re-analysis of the deposited data

How the results depend on the processing

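Of the 42 members, 3 were called higher by edgeR's quasi-likelihood test. DESeq2, the likelihood ratio test, library totals, upper-quartile factors and a call without a fold limit each gave 5, RLE factors and no low-count filter gave 4, and limma-voom and a filter on CPM gave 3, all including Npc1, Gaa and Tpp1. Mitf and Atg9a were added by DESeq2 and the likelihood ratio test, and Lamp1 and Atg9a by library totals and upper-quartile factors. Atg9a was added by RLE factors and no low-count filter, and Lamp1 and Ctsa without the fold limit. Over the whole table the genes called higher numbered 163 by the quasi-likelihood test, 488 by DESeq2, 374 by the likelihood ratio test, 210 with library totals, 188 with upper-quartile factors, 174 without a fold limit, 171 with RLE factors and 211, of 16326, without the filter. Leaving out one sample gave 0 to 10. No label ties the replicate numbers to a shared culture, and deviations from the group means were uncorrelated between samples of one number (-0.0176 over genes). With a replicate block 0 members were called higher by edgeR (15 higher and 1 lower at an unadjusted p under 0.05), and the whole table had 3 genes higher and 14 lower. The count of members called lower was 0 in every one of these fits. The median log2 fold change of the members was 0.18 with library totals, which moved the median of all genes to 0.04, and 0.11 to 0.15 with one sample left out. Each of the 24 members chosen by the rule above for description in detail kept its sign in all of these fits. In all of them but Ctsd and Sqstm1 the groups did not overlap, so leaving out a sample could hardly reverse the sign. Of the other members, Lamp2, Scarb2, Ctsl, Gusb, Asah1 and Atg5 changed sign in some of the fits without 1 sample. Whatever the fold, DESeq2 gave 12 of the 42 members an adjusted p under 0.05, all of them higher. The matching share of all genes was not counted, so the 12 cannot be weighed. With the fold limit DESeq2 called 5 of the 42 higher, where it called 3.92% of all genes tested higher. With 2 samples per group, small differences such as those of most members are hard to separate from the spread between replicates. The number that passed depended on the test.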
